A study of Mus musculus with 18 samples.

Results

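The effect that kidney and gastrocnemius had in common was measured in 12 of the 18 RNA-seq libraries of a study of old male C57BL/6 mice given SeMSNs, which the submitters describe as a nano-selenium supplement. All 12 libraries entered a single fit with 4 groups, and the effect in common was the mean of the kidney effect and the gastrocnemius effect of SeMSNs against old control. The 6 brain libraries stayed outside that fit because their pieces differ in markers of brain regions. Each group held 3 libraries: old control kidney, SeMSNs kidney, old control gastrocnemius and SeMSNs gastrocnemius. All mice were wild type, on a normal diet and 18 months old at the start, and tissues were taken at 23 months, so there is no young group and both arms are aged animals. Controls were gavaged with saline. The labels disagree on the dose of SeMSNs, one text giving 5 mg/kg (from a stock of 1 mg/mL, 2 times every 2 days) and the other 10 mg/kg daily. They do not say which libraries came from the same mouse, so a p-value here is set by how far these libraries scatter, and libraries of the 2 tissues were treated as independent.

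Selenium enters the body as a trace element and is built into selenoproteins as selenocysteine, among them the glutathione peroxidases that remove peroxides and the thioredoxin reductases that keep thiols reduced. Kidney makes most of the plasma glutathione peroxidase Gpx3, and skeletal muscle is rich in the small selenoprotein Selenow. The series title names Sik1, a salt-inducible kinase that restrains CREB-dependent transcription, and calcium homeostasis. A mean over tissues favours genes whose difference has the same sign in both, but a large difference in one tissue can also carry it, so the effect in each tissue is given beside the mean throughout.

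Total counts ranged from 17357799 to 22146406 per library. One count was worth between 0.0351 and 0.0719 CPM, the count scaled to library size and corrected between libraries by TMM. The tissues were as labelled: uromodulin (Umod, thick ascending limb) was at 1744 CPM or more in every kidney library and at 1.55 CPM or less in every muscle library, and muscle creatine kinase (Ckm) was at 13430 CPM or more in muscle and at 0.491 CPM or less in kidney. The androgen-regulated kidney gene Kap reached 19.4 CPM in 1 muscle library against 4690 to 10042 CPM in kidney. Kidney control 3 stood apart for early response genes, and gastrocnemius control 3 was the highest of evenly spread controls for the same list. The values most affected are given with and without both libraries.

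Of 15841 genes tested, 2 passed an adjusted p of 0.05 for the mean effect (edgeR's quasi-likelihood F test, Benjamini-Hochberg adjusted over all genes), which is 0.0126% of the genes tested. Both fell: F2r, the protease-activated thrombin receptor, and a gene model of Myh14, a nonmuscle myosin heavy chain. No gene rose past the threshold in edgeR, whereas DESeq2 on the same counts called 271 genes, 92 of them higher and 179 lower. An unadjusted p under 0.05 was reached by 2283 genes (14.4%), of which 987 had a higher and 1296 a lower mean. The difference between the tissues passed for 1 gene, the Myh14 model, which is 0.00631% of the genes tested, and 1029 genes (6.5%) had an unadjusted p under 0.05 for it, 3.67% with the higher and 2.82% with the lower effect in kidney. Within the same fit 1 gene passed in kidney (0.00631%) and 15 passed in gastrocnemius (0.0947%), of which 14 were lower. An unadjusted p under 0.05 was reached by 3.8% of genes in kidney (2.3% lower, 1.5% higher) and by 16.7% in gastrocnemius (9.22% lower, 7.49% higher). The 4 groups shared 1 estimate of spread per gene, though the spread was unequal. Pairs of libraries of a group had a chi-square per degree of freedom of 37.2 to 137 in gastrocnemius and 18.9 to 49.2 in kidney. These counts therefore do not compare the size of the response between the tissues.

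F2r was the 1 gene that passed for the mean effect and was lower in both tissues at an unadjusted p under 0.05. In kidney the controls were at 32.1, 37.0 and 37.0 CPM and the SeMSNs libraries at 21.9, 23.8 and 26.6 CPM. Gastrocnemius held 18.3, 17.5 and 22.6 CPM in the controls against 8.44, 5.46 and 8.13 CPM in the treated libraries. Every SeMSNs library was below every control of its tissue. Its mean log2 fold change (± SE, as for all that follow) was −0.98 ± 0.13 and its edgeR adjusted p 0.0384. The difference was −0.55 ± 0.18 in kidney and −1.41 ± 0.19 in gastrocnemius, and the test of the difference between them did not pass (edgeR adjusted p = 0.74). Brain, outside the fit, had F2r at 13.6, 7.05 and 8.61 CPM without and 6.44, 7.83 and 6.04 CPM after SeMSNs, and there the groups overlapped. F2r lies at chr13:95601804-95618459 on the minus strand of GRCm38. Its call depended on the fit: it was lost with upper-quartile scaling, with limma-voom, with limma on log2(FPKM + 1) and under each of the 3 replicate blocks. It was also lost when any single kidney library was left out, and without gastrocnemius control 2, SeMSNs 2 or SeMSNs 3. Over the alternatives its log2 fold change ran from −1.06 to −0.76.

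The promoters shown here belong to F2r and to a pair of genes that were lower in both tissues without passing, Rcan1 and Slc7a1. They are the genes among those lower in both tissues, listed further on, whose RefSeq promoter held the letters of an AP-1 site (TGANTCA, the target of Fos and Jun proteins). Each run is 250 bases before to 50 bases after a RefSeq start on GRCm38.p6, read 5′ to 3′ on the minus strand that carries the gene. Capitals mark TGANTCA or the cyclic AMP response element TGACGTCA, both of which read the same on either strand.
F2r, chr13:95618417-95618716: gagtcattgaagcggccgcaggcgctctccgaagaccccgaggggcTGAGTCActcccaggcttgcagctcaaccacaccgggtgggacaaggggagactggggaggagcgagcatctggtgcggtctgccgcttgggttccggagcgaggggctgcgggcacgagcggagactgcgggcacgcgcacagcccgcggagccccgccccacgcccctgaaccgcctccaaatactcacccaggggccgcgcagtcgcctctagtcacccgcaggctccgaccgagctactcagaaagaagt
Rcan1, chr16:92400029-92400328: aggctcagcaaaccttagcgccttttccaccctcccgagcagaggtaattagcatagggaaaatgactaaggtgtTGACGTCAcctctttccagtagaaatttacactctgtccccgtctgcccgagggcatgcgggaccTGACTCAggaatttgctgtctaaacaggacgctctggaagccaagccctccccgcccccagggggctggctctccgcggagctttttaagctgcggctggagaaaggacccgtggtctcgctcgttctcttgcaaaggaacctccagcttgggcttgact
Slc7a1, chr5:148399855-148400154: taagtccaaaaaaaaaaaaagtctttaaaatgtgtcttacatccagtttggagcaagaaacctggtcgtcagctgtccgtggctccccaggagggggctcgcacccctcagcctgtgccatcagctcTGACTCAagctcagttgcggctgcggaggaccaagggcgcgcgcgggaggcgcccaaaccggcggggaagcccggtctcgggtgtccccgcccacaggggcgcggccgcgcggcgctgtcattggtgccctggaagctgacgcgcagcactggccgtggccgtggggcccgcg
The F2r promoter held TGAGTCA with its first base 204 bases before the start. Rcan1 has a pair of promoters in the table, and the one shown held TGACGTCA 175 bases before the start and TGACTCA 110 bases before it. For Slc7a1, which also has a pair, TGACTCA began 123 bases before the start. TGANTCA was present in 6.84% and TGACGTCA in 3.31% of the 11383 tested genes with a promoter in the table. Among the genes lower in both tissues 3 of 17 with a promoter held TGANTCA, and among those higher in both 1 of 7 did. A match of letters is a description and not a site of binding.

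The Myh14 model came from gastrocnemius alone. Its controls there had 477, 606 and 314 reads and its SeMSNs libraries 2, 8 and 4 reads, a log2 fold change of −6.53 ± 0.62. In kidney the controls had 310, 366 and 515 reads and the SeMSNs libraries 590, 140 and 384, and the groups overlapped (log2 fold change −0.13 ± 0.42). The mean was −3.33 ± 0.38 (edgeR adjusted p = 0.0162). The effect in kidney minus that in gastrocnemius was 6.4 on the log2 scale (edgeR adjusted p = 0.0246). This model, at chr7:44606210-44665497, overlaps a second Myh14 model at chr7:44605819-44665503. The second had 2623, 3080 and 678 reads in control muscle and 734, 1396 and 1646 with SeMSNs, and did not pass in muscle (log2 fold change −0.70 ± 0.46, edgeR adjusted p = 0.46). Reads could be split between the models in counting, so the value for either is uncertain.

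Across the 12399 genes that passed the filter on low counts in each tissue alone, the kidney and gastrocnemius effects ran in the same direction more often than not for the stronger genes. An unadjusted p under 0.05 in each tissue was reached by 109 genes. Of these, 102 had the same sign, 64 lower in both and 38 higher in both, and 7 had opposite signs. Genes with the same sign and such a p in each tissue were 0.823% of the 12399. Over all 12399 genes the log2 fold changes of the tissues had a Pearson r of 0.278 and a Spearman rho of 0.294, as a description across genes that share their 12 libraries. The SD of the log2 fold changes over those genes was 0.30 in kidney and 0.47 in gastrocnemius.

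The 64 to 38 split moved with the scaling: it was 45 lower and 55 higher with upper-quartile scaling, 43 and 44 in limma-voom, 24 and 62 in limma on log2(FPKM + 1), 32 and 59 on log2(FPKM + 0.1), and 53 and 51 with a gene length trend removed. The likeness of the tissues leaned on the control libraries numbered 3. Without kidney control 3 the r was 0.130 and 61 of 79 genes had the same sign. Without gastrocnemius control 3 the r was 0.159, with 123 of 158. Without either it was 0.0792, with 99 of 136 genes (72.8%). Libraries of the same number may or may not come from the same mouse.

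**Figure D1:**
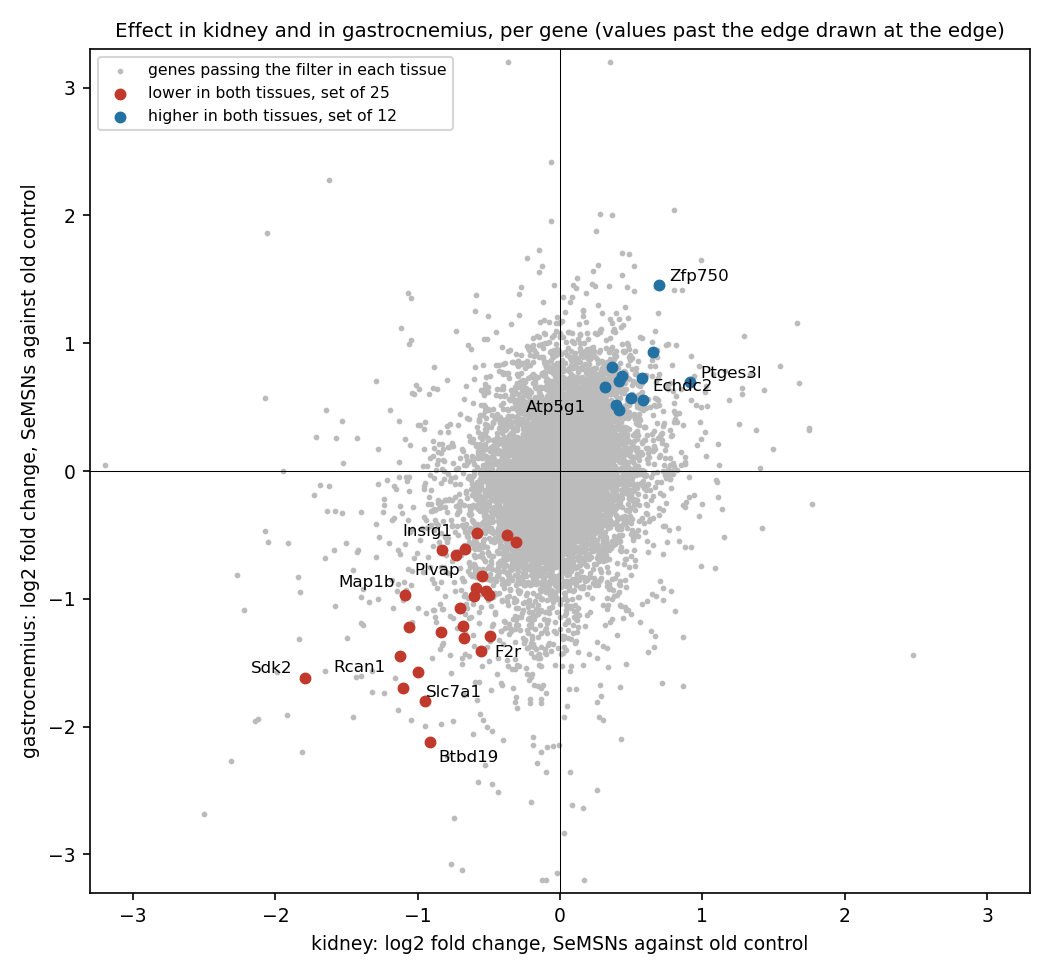
Log2 fold change of SeMSNs against old control in kidney (x axis) and in gastrocnemius (y axis) for the 12399 genes that passed the filter in each tissue; values past the edge are drawn at the edge. Red points are the 25 genes lower in both tissues and blue points the 12 higher in both, chosen by these same values, so their place in the corners is set by the choice. The grey cloud is wider in gastrocnemius (SD 0.47) than in kidney (SD 0.30).

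To show which genes stood behind the effect in common, 37 genes were taken after their values were seen: same sign and unadjusted p under 0.05 in each tissue, p under 0.001 for the mean, and no predicted gene. Of these 25 were lower and 12 higher, and F2r alone passed the adjusted threshold. Just inside the limit was Iqgap2, with an unadjusted edgeR value of 0.000976 and a mean log2 fold change of −0.73, and just outside was Ptpn4, with 0.00103 and −0.57. The groups did not overlap in either tissue for 30 of the 37, against 0.96% of the 12399 genes lower and 1.09% higher without overlap in both, but the choice of genes fixes much of this. The log2 fold change was larger in gastrocnemius than in kidney for 29 of the 37, with median sizes of 0.93 and 0.60. This is not particular to the set, since the SD over all 12399 genes was 0.47 in gastrocnemius and 0.30 in kidney. The share of all genes with the larger value in gastrocnemius was not counted. None of the 37 passed the test of the difference between tissues (lowest edgeR adjusted p = 0.74). With both control libraries numbered 3 left out, all 37 kept their sign in both tissues and 24 still had an unadjusted p under 0.05 in each. In that edgeR fit 17 of them passed for the mean, among 107 of the 15841 genes tested. The set was chosen on libraries which that fit shares. Gastrocnemius control 2 was the highest muscle control for 18 of the 25 lower genes, and gastrocnemius control 3 for 5. Over all 12399 genes they were the highest for 3558 and 4535. Kidney control 3 was the highest kidney control for 15 of the 25 lower genes, and for 4766 of the 12399. Without control number 2 in both tissues, or without any single SeMSNs number in both, none of the 37 passed.

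The lower genes included Rcan1 and Gem, which act on calcium signals. The list of 40 calcium handling and calcineurin genes was split, with 23 lower and 17 higher and medians of 0.00 in kidney and −0.03 in gastrocnemius. Rcan1, the regulator of calcineurin and itself a calcineurin and stress response gene, was at 69.1, 61.9 and 186 CPM in control kidney and at 51.6, 50.8 and 43.2 CPM with SeMSNs. Gastrocnemius held 213, 248 and 258 CPM of it in the controls against 69.9, 92.2 and 102 CPM. The groups were apart in both tissues, with kidney control 3 far above the other kidney controls. Over both tissues Rcan1 had a log2 fold change of −1.28 ± 0.24 (edgeR adjusted p = 0.127), and of −0.91 (adjusted p = 0.0224) without both control libraries numbered 3. Gem, a small GTPase that dampens voltage-gated calcium channels, was at 5.03, 5.22 and 4.51 CPM in control kidney against 2.33, 2.36 and 3.55 with SeMSNs. Its muscle controls were at 2.52, 1.88 and 2.66 CPM against 0.851, 0.849 and 1.24. Here no control library stood apart, and the mean log2 fold change was −1.05 ± 0.20 (edgeR adjusted p = 0.127). Tgfbr1, the type I TGF-beta receptor, had a mean log2 fold change of −0.43 ± 0.10.

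Transporters of amino acids formed the next group. Slc7a1, the cationic amino acid transporter, was at 9.68, 8.76 and 19.0 CPM in control kidney and at 6.88, 3.26 and 8.49 CPM with SeMSNs. In muscle its controls were at 13.2, 16.3 and 13.8 CPM and its SeMSNs libraries at 4.75, 5.04 and 4.75 CPM. The groups were apart in both tissues, narrowly so in kidney outside control 3. Slc38a2, which carries small neutral amino acids, had log2 fold changes of −0.70 ± 0.29 in kidney and −1.07 ± 0.29 in gastrocnemius. Slc7a5, the large neutral amino acid transporter, had −0.95 ± 0.43 and −1.80 ± 0.44. Without the control libraries numbered 3 the kidney values of these 3 genes were −0.57, −0.34 and −0.41, none with an unadjusted p under 0.05. Insig1, which holds the sterol regulator SREBP in the endoplasmic reticulum, was at 34.1, 40.3 and 28.2 CPM in control kidney and at 21.4, 22 and 21.3 CPM with SeMSNs. Its muscle libraries were at 10.9, 15.4 and 9.55 CPM against 9.29, 6.25 and 7.99 CPM, and neither pair of groups overlapped.

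Plvap, Pecam1, Nckap1l and Itga5 were among the lower genes of the set, and none of them passed for the mean. Plvap, which forms the diaphragms of fenestrated endothelium, was at 68.1, 67.6 and 39.9 CPM in control kidney and at 33.2, 46.8 and 36.9 CPM with SeMSNs. In muscle it was at 9.27, 11.1 and 9.93 CPM against 6.67, 5.46 and 3.99 CPM. The kidney groups overlapped because control 3 was low, and the muscle groups did not. Pecam1, the endothelial adhesion molecule CD31, was at 41.4, 39.3 and 40.4 CPM in control kidney and at 27.1, 22.8 and 30.8 CPM with SeMSNs. Its muscle controls were at 95.3, 136 and 124 CPM and the SeMSNs libraries at 95.2, 71.0 and 87.7 CPM, nearly touching. Nckap1l, a WAVE complex subunit of blood cells, had log2 fold changes of −0.49 ± 0.22 in kidney and −1.29 ± 0.26 in gastrocnemius. The integrin subunit Itga5 had −0.68 ± 0.27 and −1.31 ± 0.26, and its kidney value was −0.26 without the control libraries numbered 3. In bulk tissue, fewer cells of a type and less RNA per cell cannot be told apart.

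The rest of the lower genes had varied roles. Map1b, a microtubule-associated protein of growing neurites, was at 9.12, 5.01 and 7.77 CPM in control kidney and at 3.07, 3.02 and 4.15 CPM with SeMSNs. In muscle it was at 30.5, 43.1 and 24.5 CPM against 12, 19.1 and 19.0 CPM. No groups overlapped, and the values were alike in size, −1.09 ± 0.29 in kidney and −0.97 ± 0.27 in gastrocnemius. Pmp22, a myelin protein of Schwann cells that other cells also make, had −0.73 ± 0.19 and −0.65 ± 0.19. The adhesion protein gene Sdk2 had −1.79 ± 0.41 and −1.62 ± 0.44, at levels under 2.4 CPM in both tissues. Tubb6, a beta-tubulin that rises in regenerating muscle, had −1.11 ± 0.47 and −1.70 ± 0.42, and its kidney libraries overlapped. Tead4, a transcription factor of the Hippo pathway, had −1.06 ± 0.37 and −1.22 ± 0.29. The remaining lower genes were Btbd19, Lysmd3, Ttll7, Filip1, Ehd4, Pvr, Rab6a and Iqgap2, with mean log2 fold changes from −1.52 for Btbd19 to −0.43 for Rab6a.

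Among the 12 higher genes, Atp5g1, Echdc2 and Ppox encode mitochondrial proteins, and the share of such genes among all genes tested was not counted. Atp5g1, a c subunit of ATP synthase, was at 34.2, 32.3 and 36.9 CPM in control kidney and at 38.9, 48.2 and 41.4 CPM with SeMSNs. In muscle it was at 110, 93.7 and 102 CPM against 181, 151 and 149 CPM. Echdc2, a mitochondrial enoyl-CoA hydratase family member, was at 71.6, 68.7 and 66.7 CPM in control kidney and at 103, 114 and 91.4 CPM with SeMSNs. Its muscle controls were at 6.68, 4.69 and 8.38 CPM and the SeMSNs libraries at 9.29, 11.6 and 11.8 CPM. Every SeMSNs library was above every control for both genes in both tissues. Ppox, the haem synthesis enzyme protoporphyrinogen oxidase, had log2 fold changes of 0.41 ± 0.14 in kidney and 0.48 ± 0.14 in gastrocnemius. Slc22a5, the carnitine transporter, was at 179, 166 and 174 CPM in control kidney and at 224, 235 and 221 CPM with SeMSNs. In muscle it was at 8.34, 7.5 and 10.8 CPM against 13.5, 11.9 and 12.8 CPM. Its mean log2 fold change was 0.45 ± 0.11 (edgeR adjusted p = 0.174). Slc47a1, the kidney's proton-coupled exporter of organic cations, had 0.41 ± 0.17 and 0.71 ± 0.18, and Rnaseh2c, a subunit of ribonuclease H2, had 0.37 ± 0.16 and 0.81 ± 0.17. The other higher genes were Ptges3l, Eid2b, Zfp750, Ccdc23, Lppos and Thap3, with mean log2 fold changes from 0.53 to 1.08. Lppos is antisense to Lpp, and whether counting used strand is not given, so their reads cannot be told apart.

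**Figure D2:**
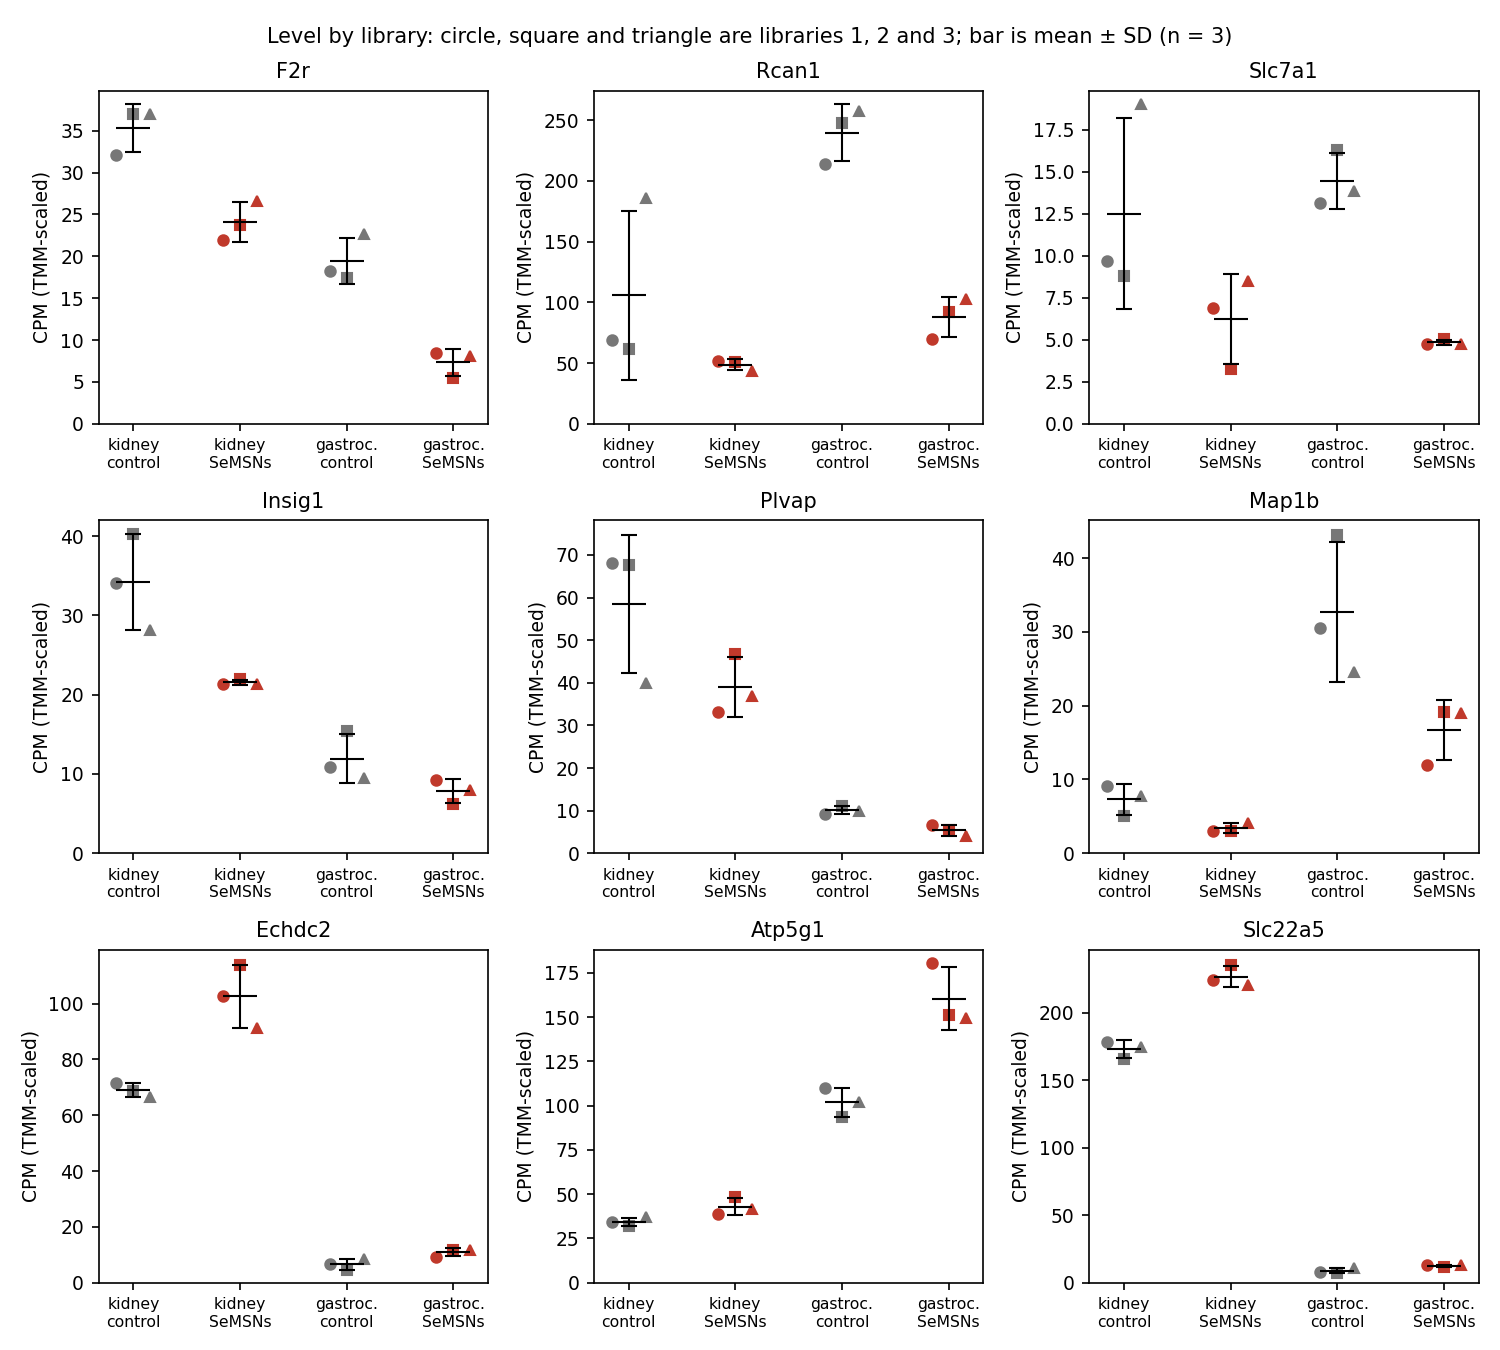
TMM-scaled CPM (y axis, from 0) of 9 genes in the 12 libraries, by tissue and treatment. Circles, squares and triangles are libraries 1, 2 and 3, and the bar and whiskers are the mean ± SD (n = 3). F2r, Insig1 and Map1b are lower with SeMSNs in every library of both tissues, Echdc2, Atp5g1 and Slc22a5 are higher, and the triangles of control kidney stand high for Rcan1 (186 CPM) and Slc7a1 (19.0 CPM) and low for Plvap (39.9 CPM).

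Like the Myh14 model, several genes with small p values for the mean had most of their difference in 1 tissue. The 4 described next did not pass the adjusted threshold for the mean. Unlike the Myh14 model, they did not pass for the difference between tissues either. Irs2, the insulin receptor substrate, was at 46.3, 82.9 and 61.8 CPM in control muscle and at 7.09, 7.58 and 12.2 CPM with SeMSNs. In kidney it was at 8.43, 14.4 and 13.0 CPM against 12.8, 7.84 and 15.9 CPM, with full overlap. Its mean log2 fold change was −1.40 ± 0.22 (edgeR adjusted p = 0.127), made of 0.03 in kidney and −2.83 in gastrocnemius. Sik1 was at 117, 149 and 150 CPM in control muscle and at 36.7, 23.8 and 30.0 CPM with SeMSNs. Kidney held 47.3, 45.9 and 101 CPM against 58.3, 57.9 and 60.5 CPM, so that only control 3 was above the SeMSNs libraries. The mean log2 fold change of Sik1 was −1.17 ± 0.19 (edgeR adjusted p = 0.127), with −0.13 ± 0.27 in kidney and −2.20 ± 0.28 in gastrocnemius. The tests of the difference between tissues gave adjusted p values of 0.138 for Irs2 and 0.336 for Sik1.

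The glucose transporter Slc2a1 had a mean log2 fold change of −0.94 ± 0.15 (edgeR adjusted p = 0.127), of which −0.34 ± 0.21 was in kidney and −1.55 ± 0.22 in gastrocnemius. Eva1a, a regulator of autophagy, was the reverse case. It was at 34.6, 36.1 and 37.8 CPM in control kidney and at 12.5, 9.82 and 12.9 CPM with SeMSNs, while muscle held at most 1.64 CPM in any library. It was the 1 gene that passed in kidney in this fit, and its mean log2 fold change was −0.87 ± 0.16 (edgeR adjusted p = 0.127). For the difference between tissues the edgeR adjusted p values were 0.592 for Slc2a1 and 0.515 for Eva1a. Among the genes with the smallest p that were higher in both tissues, Lamtor2, a subunit of the Ragulator complex on lysosomes, had 0.18 ± 0.12 in kidney and 0.72 ± 0.13 in gastrocnemius. Atp1b2, a beta subunit of the sodium pump, had 0.48 ± 0.24 and 1.20 ± 0.23. The riboflavin transporter Slc52a2 had 0.19 ± 0.16 and 1.03 ± 0.19, and Emid1 had 0.52 ± 0.31 and 1.60 ± 0.30. All 4 had a larger value in gastrocnemius, and none passed for the mean (edgeR adjusted p from 0.127 to 0.132).

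Selenoprotein genes were split between the directions. Of 22 tested, none passed and none had an unadjusted p under 0.05 for the mean, with 12 lower and 10 higher and a median log2 fold change of −0.08, beside −0.01 over all genes tested. Without the control libraries numbered 3 the median was 0.02, and 4 were lower at an unadjusted p under 0.05. Gpx1, the cytosolic glutathione peroxidase, was at 298, 120 and 368 CPM in control kidney and at 384, 1970 and 298 CPM with SeMSNs. A single SeMSNs kidney library stood above the rest, and the mean log2 fold change was 1.04 ± 0.49 (edgeR adjusted p = 0.35). Gpx3 had a mean of −0.46 ± 0.31 with 0.08 in kidney and −0.998 in gastrocnemius, where control 1 was at 317 CPM and control 3 at 77.1 CPM. Selenow, listed as Sepw1, had 0.27 ± 0.15, and the selenium carrier Selenop, listed as Sepp1, had 0.12 ± 0.14. The thioredoxin reductase Txnrd1 had −0.28 ± 0.16, and Sephs2, which makes the selenium donor for selenocysteine, had 0.07 ± 0.11. Of the 14 tested genes for selenium handling and selenocysteine insertion, an unadjusted p under 0.05 was reached by 2 with a lower and 1 with a higher mean, with a median of 0.01 and none past the threshold. The lowest p was that of the selenoprotein P receptor Lrp8 (mean log2 fold change −2.46 ± 0.83), which reached at most 0.996 CPM in muscle.

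No member of the 43 gene lists passed the adjusted threshold for the mean in edgeR, so lists are described by counts and medians beside those of all genes. Over all 15841 genes 52.2% were lower, 8.18% were lower and 6.23% higher at an unadjusted p under 0.05, and of the 12399 genes expressed in both tissues 32.3% were lower in both and 29% higher in both. The medians of 26 lists were below 0 in both tissues and those of 7 were above 0 in both. Without the control libraries numbered 3 these were 15 and 10 lists, of which 12 and 6 had been so before.

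Immediate early genes, which are transcribed within minutes of a stimulus, had the lowest list median for the mean over tissues with all 12 libraries, though not within kidney or gastrocnemius alone. Of 36 tested, 35 were lower for the mean and 20 were lower at an unadjusted p under 0.05, and of the 34 expressed in both tissues 27 were lower in both. The median log2 fold change was −0.90 for the mean, −0.55 in kidney and −0.92 in gastrocnemius. Atf3, a stress-induced transcription factor, was at 1.78, 1.68 and 8.09 CPM in control kidney and at 0.778, 1.04 and 0.792 CPM with SeMSNs. In muscle it was at 95, 175 and 31.4 CPM against 7.94, 45.5 and 24.9 CPM. Maff, a small Maf factor, was at 3.06, 2.70 and 18.3 CPM in control kidney and at 2.26, 2.22 and 2.30 CPM with SeMSNs. Egr1, the zinc finger early response factor, was at 10.1, 17.4 and 100 CPM in control kidney and at 11.9, 27.2 and 9.70 CPM with SeMSNs. Control 3 was thus several times the other kidney libraries. Without the control libraries numbered 3 the kidney value of Egr1 turned to 0.24. Csrnp1 had −0.19 ± 0.36 in kidney (0.29 without those libraries) and −2.14 ± 0.38 in gastrocnemius, where its groups did not overlap.

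The list mean of the early genes put numbers on that library. Relative to the control mean of the tissue, in log2 units, it was −0.41, −0.43 and 0.83 in the 3 kidney controls and −0.39, −0.31 and −0.57 in the kidney SeMSNs libraries. In gastrocnemius it was −0.57, 0.04 and 0.52 in the controls and −0.93, −0.95 and −0.82 with SeMSNs. The kidney SeMSNs libraries thus lay close to control 1 and control 2, and the gastrocnemius SeMSNs libraries lay below all controls. Without the control libraries numbered 3 the list median was 0.01 in kidney and −0.64 in gastrocnemius, and 15 members were lower in both tissues. The same control libraries were the highest of their group for glucocorticoid-induced genes (0.52 in kidney and 0.30 in gastrocnemius), whose list median went from −0.23 to 0.00 in kidney without them and from −0.47 to −0.35 in gastrocnemius. Fkbp5, a glucocorticoid receptor co-chaperone and target, had −0.73 ± 0.33 in kidney and −0.68 ± 0.33 in gastrocnemius. What part the control libraries numbered 3 have in these values beyond this was not tested.

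**Figure D3:**
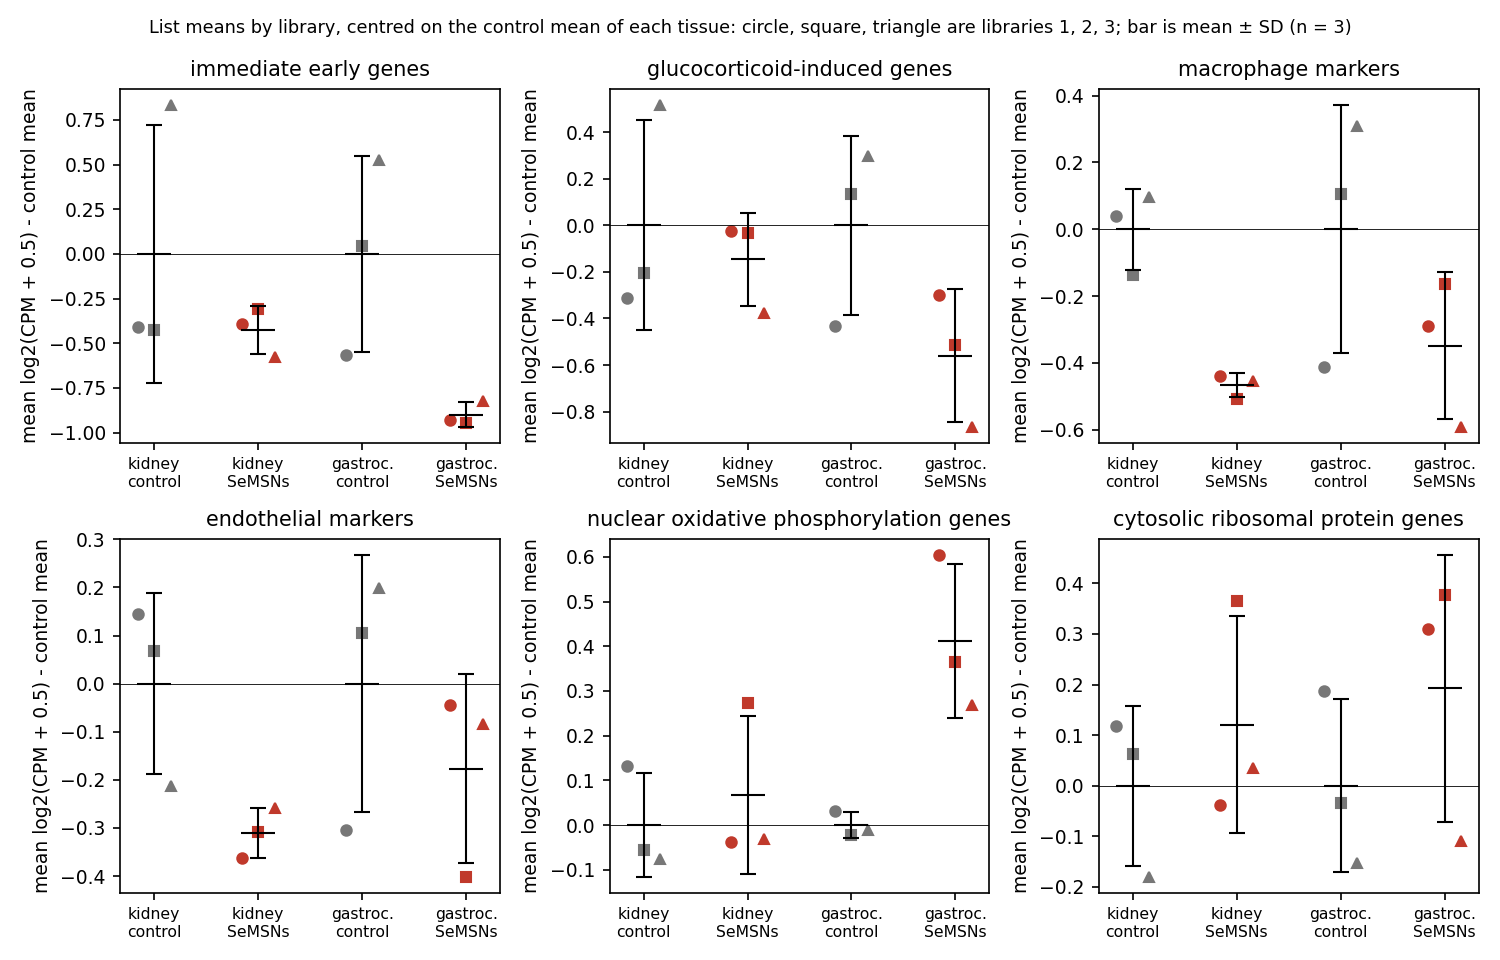
Mean log2(CPM + 0.5) of the tested members of 6 gene lists in each library, minus the control mean of the same tissue (y axis), by tissue and treatment. Circles, squares and triangles are libraries 1, 2 and 3, and the bar and whiskers are the mean ± SD (n = 3). The triangles of the controls are highest for immediate early genes (0.83 in kidney and 0.52 in gastrocnemius), the kidney macrophage and endothelial means are below all controls with SeMSNs, and the oxidative phosphorylation mean is above all controls in gastrocnemius but not in kidney.

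Macrophage markers had medians below 0 in both tissues with and without those controls. Of 22 tested, 20 were lower for the mean and 9 had an unadjusted p under 0.05, and 15 of the 18 expressed in both tissues were lower in both. The median was −0.51 in kidney and −0.42 in gastrocnemius, and −0.52 and −0.23 without the control libraries numbered 3, when 9 of the 18 were lower in both. Their summed level was 210 to 256 CPM in control kidney and 151 to 176 CPM with SeMSNs, and 81.5 to 130 CPM in control muscle against 59.8 to 94.2 CPM. The kidney groups were apart and the muscle groups overlapped. Adgre1, which encodes the macrophage marker F4/80, was at 6.81, 5.47 and 5.06 CPM in control kidney and at 3.11, 1.46 and 2.23 CPM with SeMSNs. In muscle it was at 0.431, 1.35 and 1.55 CPM against 0.496, 0.667 and 0.482 CPM. Its mean log2 fold change was −1.18 ± 0.30 (edgeR adjusted p = 0.196).

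Endothelial markers had 13 of 16 members lower for the mean, 7 of them at an unadjusted p under 0.05, and 11 of 16 were lower in both tissues, or 9 without the control libraries numbered 3. Their median was −0.43 in kidney and −0.18 in gastrocnemius, and −0.57 and −0.15 without the control libraries numbered 3. Flt1, a VEGF receptor, was at 45.4, 54.1 and 43.1 CPM in control kidney and at 28.2, 34.9 and 30.8 CPM with SeMSNs. In muscle its controls ran from 92.9 to 221 CPM and the SeMSNs libraries from 102 to 130 CPM, within the control range. Plvap and Pecam1 belong to the same cells, and the part of cell numbers in their values was not tested. Of the 12 Schwann cell and nerve markers, 11 were lower, and of the 22 tubular injury genes 20 were lower. Tubular injury genes had a kidney median of −0.67, or −0.22 without the control libraries numbered 3.

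Nuclear genes of oxidative phosphorylation, which encode subunits of the respiratory chain and ATP synthase, leaned to one direction. Of 46 tested, 45 were higher for the mean and 20 were higher at an unadjusted p under 0.05, and 32 were higher in both tissues. Without the control libraries numbered 3 these counts were 43, 11 and 25. The size was unequal: the median was 0.09 in kidney and 0.44 in gastrocnemius. Ndufb2, a complex I subunit, was at 17.2, 18.1 and 19.98 CPM in control muscle and at 35.5, 30.6 and 24.5 CPM with SeMSNs. In kidney it was at 16.7, 12.9 and 14.8 CPM against 14.8, 19.6 and 17.1 CPM, with overlap, and its mean log2 fold change was 0.46 ± 0.12 (edgeR adjusted p = 0.219). The complex I subunit gene Ndufa8 had 0.21 ± 0.16 in kidney and 0.53 ± 0.16 in gastrocnemius. In kidney the list mean was 0.27 in SeMSNs library 2 and −0.04 and −0.03 in the others, against −0.08 to 0.13 in controls, and without kidney SeMSNs 2 the kidney median dropped below 0. In gastrocnemius the list mean was 0.60, 0.36 and 0.27 with SeMSNs and −0.02 to 0.03 in controls. Beside this, 16 of 18 fast fibre genes were higher for the mean, and their gastrocnemius list mean was 0.53, 0.34 and 0.60 with SeMSNs against −0.17 to 0.11 in controls. Their part in the oxidative phosphorylation values was not tested. No member of the 13 genes of the mitochondrial genome had an unadjusted p under 0.05, and their median was −0.13 in kidney and −0.06 in gastrocnemius. Cytosolic ribosomal protein genes had medians of 0.12 in kidney (−0.04 without kidney SeMSNs 2, and 0.03 without the control libraries numbered 3) and 0.26 in gastrocnemius, and of 39 tested an unadjusted p under 0.05 was reached by 3 with a higher and 1 with a lower mean.

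**Figure D4:**
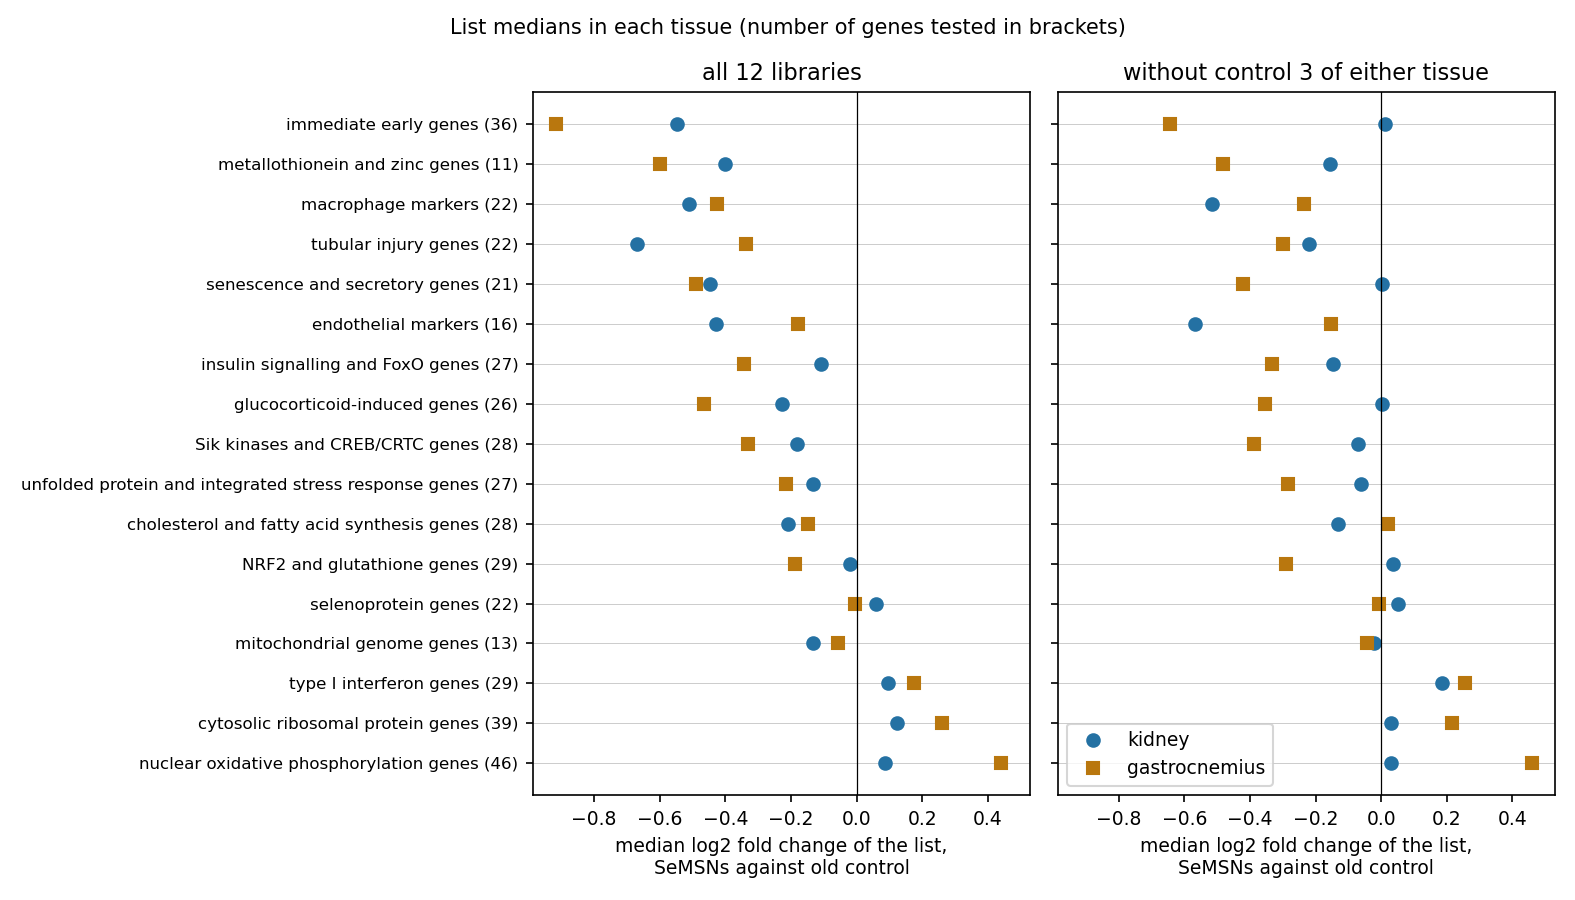
Median log2 fold change of SeMSNs against old control (x axis) of 17 gene lists in kidney (circles) and gastrocnemius (squares), with all 12 libraries on the left and without the control libraries numbered 3 on the right. Immediate early genes move from −0.55 to 0.01 in kidney, macrophage markers are lower in both panels and tissues, and oxidative phosphorylation genes are near 0 in kidney (0.09 and 0.03) and above it in gastrocnemius (0.44 and 0.46).

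Other lists with lower medians in both tissues held genes that have several inputs. In the insulin and FoxO list 24 of 27 were lower for the mean, with medians of −0.11 in kidney and −0.34 in gastrocnemius that were −0.15 and −0.33 without the control libraries numbered 3. Besides Irs2, Pik3r1, the regulatory subunit of PI3-kinase, had −0.35 ± 0.19 in kidney and −0.76 ± 0.20 in gastrocnemius. In the list of Sik kinases and CREB genes 24 of 28 were lower, with medians of −0.18 and −0.33, and without the control libraries numbered 3 there were 20 lower, with medians of −0.07 and −0.39. Ppargc1a, the coactivator of mitochondrial genes, had −0.20 ± 0.34 in kidney and −1.58 ± 0.35 in gastrocnemius, where control 3 was at 227 CPM and the other controls at 88.3 and 82.1 CPM. Without the control libraries numbered 3 its values were −0.40 and −0.95. Among sterol and fatty acid synthesis genes 20 of 28 were lower, with medians of −0.21 and −0.15, but without the control libraries numbered 3 the gastrocnemius median was 0.02 and 15 of 28 were lower. Of 27 genes of the unfolded protein and integrated stress responses 19 were lower, with medians of −0.13 and −0.21. The chaperone gene Dnajb9 had −0.56 ± 0.23 and −0.67 ± 0.23, and the serine synthesis gene Psat1 had −0.74 ± 0.23 and −0.66 ± 0.28. Of 11 metallothionein and zinc genes 10 were lower. Mt1 was at 54.2, 58.6 and 159 CPM in control kidney and at 63.4, 68.1 and 56.6 CPM with SeMSNs, and kidney control 3 alone was above the SeMSNs libraries. Its kidney value was −0.53, or 0.15 without the control libraries numbered 3.

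Brain gives the same genes in libraries that the fit did not use, because their pieces differ in markers of brain regions. What part the regions have in the directions below was not tested. Of the 38 genes of the set above, counting 1 predicted gene, 28 (73.7%) had the same direction in brain, against 57.4% of 14063 genes. F2r, Gem and Itga5 were lower in brain by log2 differences of −0.47, −1.40 and −1.0, while Pmp22 was at 0.51 and Tead4 at 2.68. Brain libraries may come from the same mice as those of the other tissues, which the labels do not say.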

How the data were processed

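PolyA RNA libraries of kidney and gastrocnemius, 3 per group, were analysed from a single deposited table. It holds whole-number counts per gene and library, which the authors deposited without normalization, and FPKM values that the authors made per length and library size. GRCm38 is the build in the submitters' processing notes; the sources used here do not give aligner, counter or strand setting. Of 34745 rows, 34344 had an identifier in the GENCODE vM21 annotation, and 27 symbols that had turned into dates were named from it. In each tissue the SeMSNs library called 3 has number 4 in the column names.

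Counts were fitted in R 4.3.3 with edgeR 4.0.16: filterByExpr over the 4 groups (minimum count 10, minimum total 15), TMM, glmQLFit and glmQLFTest, with Benjamini-Hochberg adjustment at 0.05. Contrasts were the mean of the kidney and gastrocnemius effects, their difference, and each effect. SEs were taken from each log2 fold change and its F statistic. Fold changes are fitted values. Exact tests on 3 against 3 libraries cannot go below 0.1 and were not used. Libraries of a group differed by far more than sampling noise. On data simulated from the same genes, 14% of 1.5-fold and 67% of 2-fold changes in common were called among 15679 genes (3 of 84 calls false). Of differences between tissues, 11% of 2-fold and 71% of 4-fold ones were called among 15661 genes. The changed genes were drawn only from genes that passed the filter in each tissue and were not of low level. Simulated libraries were independent and none stood apart, so these shares need not hold for the libraries here.

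The members, the 43 lists (880 genes) and the tests were chosen with earlier results of these data known. Genes named were those that passed, or the 5 smallest p per direction with the same sign in both tissues, plus Sik1, Irs2 and 6 selenium genes; the 37 genes of the set and the examples of lists were chosen after their values were seen. Brain levels were scaled apart, with differences on log2(CPM + 0.1). Alternatives were other scalings and filters, DESeq2 1.42.0, limma 3.58.1 (voom, and log2 FPKM with pseudocounts of 1 and 0.1), a robust fit, length correction, replicate blocks and leaving out libraries; leaving out the same number in both tissues was added after seeing the data. Promoters are from RefSeq, GRCm38.p6; 24 of the 37 genes matched.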

Additional observations from a re-analysis of the deposited data

Results flagged for a closer look

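The Myh14 gene model differed between the tissues: its effect in kidney minus that in gastrocnemius was 6.4 on the log2 scale (edgeR adjusted p = 0.0246), with a log2 fold change of −0.13 in kidney and −6.53 in gastrocnemius. All 3 SeMSNs muscle libraries had 8 reads or fewer, and all 3 control muscle libraries had 314 or more. It shares its locus with a second Myh14 model. The difference lost its call in 14 of 30 alternatives, both replicate blocks among them, at values from 2.08 to 7.30 and adjusted p values up to 0.415 (edgeR and limma).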

How the results depend on the processing

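Counts of genes past an adjusted p of 0.05 are given here in the order mean effect, difference between tissues, kidney, gastrocnemius, moved in both tissues; edgeR gave 2, 1, 1, 15 and 1. Upper-quartile scaling gave 1, 1, 1, 15 and 0, no filter on low counts 6, 3, 1, 32 and 1, DESeq2 271, 30, 11, 613 and 85, limma-voom 0, 0, 1, 19 and 0, log2(FPKM + 1) 2, 3, 1, 15 and 0, log2(FPKM + 0.1) 3, 3, 0, 10 and 1, and removal of the length trend 2, 2, 1, 14 and 1. DESeq2 size factors, the filter in each tissue and the robust fit kept all counts within 1.5 times. Leaving out 1 library, or 1 number of a treatment in both tissues, gave 0 to 258, 0 to 51, 0 to 4, 1 to 931 and 0 to 47. The mean effect had 258 calls without gastrocnemius control 3, 107 without both control libraries numbered 3, 11 without gastrocnemius control 1, 5 without kidney control 3, 4 without gastrocnemius SeMSNs 1, and 0 without kidney SeMSNs 3 or gastrocnemius SeMSNs 2; the cause was not tested. F2r kept its direction and lost its call in 19 of 31 alternatives, and Myh14 in 8. Sephs2 reversed to −0.024 without SeMSNs number 2 in both tissues, with 0.13 as its highest value.

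Residuals of same-numbered kidney and gastrocnemius libraries had correlations of 0.158, 0.139 and 0.112 in controls and −0.050, 0.180 and 0.116 with SeMSNs. Those of differently numbered libraries ran from −0.123 to −0.0151 in controls and from −0.227 to 0.168 with SeMSNs. Whether a number stands for a mouse is not settled by these values, and the main fit did not pair by it. If same-numbered libraries share a mouse, the SEs of the mean effect may be too small. The replicate block as mouse across tissues gave 0, 0, 1, 16 and 0. The replicate block by number within each tissue gave 1, 0, 0, 1 and 0. That block matches control with SeMSNs libraries, which come from different mice, so it does not bear on sharing of a mouse. Averaging the tissues by number gave 2 calls for the mean effect, Pet117 and Myh14.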

Other observations

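Type I interferon genes had medians of 0.10 in kidney and 0.17 in gastrocnemius, with 13 of 25 members expressed in both tissues higher in both. Leaving out SeMSNs library 1 of either tissue turned the list median below 0 for the mean.

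The gastrocnemius controls differed among themselves in slow fibre genes. Their list mean, relative to the control mean in log2 units, was 1.28, 0.00 and −1.28 in controls 1, 2 and 3 and −0.25, −1.53 and −0.12 with SeMSNs. Tpm3, a slow fibre tropomyosin, was at 1520, 643 and 160 CPM in the controls.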
